A study of Homo sapiens with 3 samples.

Results

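Heat shock chaperones of the cytosol and of mitochondria were followed across 3 populations of 1205Lu, a human melanoma line grown from a lung metastasis of a mouse xenograft. The members were chosen by name from 10 gene symbols (HSP90AA1, HSP90AB1, HSPA1A, HSPA1B, HSPA8, HSPH1, DNAJB1, HSPD1, HSPE1 and HSPB1), and every array probe carrying one of these names was taken. In this way 22 of 41000 probes were found, and they stood for 9 of the 10 genes. No probe carried the name HSPA1B. The array names resolve to 30990 genes or transcripts in all.

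The original monolayer (OM) was kept for 14 days in standard medium with 10% FCS. The melanoma bodies (MB) were 3D aggregates formed over 14 days in hESC medium, a stem cell medium with 20% serum replacement instead of FCS, and were harvested by detaching them physically. The new monolayer (NM) came from melanoma bodies that had 14 days in hESC medium and then grew out for 10 days in standard medium with 10% FCS, with leftover bodies taken away. All 3 groups are therefore unmodified cells of 1 line, and no other line was on the arrays. RNA of each population was labelled with Cy3 and hybridised to 1 array of a single slide, so there were no replicate cultures and no p-value could be computed. The precision of each ratio is limited by having 1 array per population. In a bulk sample, fewer cells expressing a gene and less RNA per cell cannot be told apart.

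Molecular chaperones bind unfolded proteins and let them fold or refold. The cytosolic Hsp70 proteins work in a cycle with J proteins, which deliver clients and trigger ATP hydrolysis, and with nucleotide exchange factors such as the Hsp110 protein HSPH1, which release ADP. Hsp90 takes over clients such as kinases and steroid receptors from Hsp70, while Hsp60 (HSPD1) and its lid Hsp10 (HSPE1) form a folding chamber in the mitochondrial matrix. Many of these genes are driven by heat shock factor 1 (HSF1), which binds repeats of the unit GAA and its reverse complement TTC, and Hsp90 and Hsp70 are widely studied in melanoma because mutant kinases such as BRAF are Hsp90 clients.

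Promoter sequence from RefSeq (GRCh38.p14, 250 bases before to 50 bases after each annotated start) was at hand for all 10 genes, in 16 windows. The windows were searched on both strands for 3 alternating units, GAANNTTCNNGAA or TTCNNGAANNTTC, and for the 2-unit forms GAANNTTC and TTCNNGAA, which also lie inside every 3-unit match. Either 3-unit form was in 0.49% of the 35116 windows of the table and either 2-unit form in 13.5%. Among the chaperones, 4 genes had a 3-unit match (HSP90AA1, HSP90AB1, HSPA8 and HSPD1), 4 had only a 2-unit match (HSPA1A, HSPA1B, DNAJB1 and HSPB1), and HSPH1 and HSPE1 had neither in these windows. The shares above are per window, while these are counts of genes with 1 to 3 windows each. The stretches below are those with a match before the start, with the units in capitals. They are shown because they cover genes that differed between the populations and genes that did not, and a match describes letters only.
HSPA8: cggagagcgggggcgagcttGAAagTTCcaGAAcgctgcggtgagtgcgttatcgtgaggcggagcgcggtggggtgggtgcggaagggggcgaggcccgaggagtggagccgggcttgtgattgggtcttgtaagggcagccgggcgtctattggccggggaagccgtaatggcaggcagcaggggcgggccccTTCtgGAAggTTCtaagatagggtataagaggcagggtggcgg
HSPA1A: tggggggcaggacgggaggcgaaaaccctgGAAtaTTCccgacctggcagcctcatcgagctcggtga
HSPA1B: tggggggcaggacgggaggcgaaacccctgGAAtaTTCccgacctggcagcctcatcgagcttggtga
DNAJB1, far site: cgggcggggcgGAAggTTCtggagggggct
DNAJB1, near site: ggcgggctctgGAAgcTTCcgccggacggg
HSP90AA1: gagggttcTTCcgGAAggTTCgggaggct
HSP90AB1, far site: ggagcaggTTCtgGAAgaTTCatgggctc
HSP90AB1, near site: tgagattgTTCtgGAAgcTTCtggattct
HSPD1: gcattTTCtgGAAagTTCtgGAAccgagc
HSPB1: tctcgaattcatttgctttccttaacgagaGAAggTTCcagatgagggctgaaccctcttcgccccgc

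The HSPA8 stretch lies on the minus strand of chr11:123062149-123062386 and holds its 2 matches at bases 230 to 218 and 55 to 43 before the start. The HSPA1A stretch is at chr6:31815407-31815474 and that of HSPA1B at chr6:31827603-31827670, both on the plus strand. Their windows were identical at 277 of 299 bases (92.6%) when shifted by 1 base, which shows how close these 2 stress-inducible Hsp70 genes are. The DNAJB1 sites are at chr19:14518456-14518485 and chr19:14518426-14518455 on the minus strand, the HSP90AA1 site at chr14:102087112-102087140 on the minus strand, and the HSP90AB1 sites at chr6:44247770-44247798 and chr6:44247823-44247851 on the plus strand. The HSPD1 site, with 2 overlapping matches, is at chr2:197500062-197500090 on the minus strand, and the HSPB1 stretch at chr7:76302461-76302528 on the plus strand. The stretches of DNAJB1, HSP90AA1, HSP90AB1 and HSPD1 lie downstream of another annotated start of the same gene. HSPD1 and HSPE1 are transcribed away from each other, and their nearest annotated starts are 105 bases apart.

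Array signals below are background-subtracted intensities in arbitrary units (a.u.), scaled so that the 75th percentile over all probes of MB and NM equals that of OM. HSP90AA1 was not part of this scaling. A gene was read from its brightest probe, and a difference counts as a call at 1.5-fold or more with the probe well above background on both arrays. All member probes with a value were well above background on all arrays and none was saturated. One HSPA1A probe had no usable OM value because its only spot there was marked as non-uniform. The brightest probe of HSP90AA1 covers 349 bases of the hg17 genome and that of HSP90AB1 covers 837, so each runs across an intron. For 197 probes printed in 10 spots and above 100 a.u. on every array, the log2 ratio of single spots had a technical SD of 0.07 in each comparison, or 1.05-fold, and the variation between cultures is not in it. Probes for different genes bind with different strength, so signals are compared only between arrays, never between genes.

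Transcripts of HSPA8, HSPA1A, HSPH1 and DNAJB1, 4 genes of the Hsp70 system, were lower in NM than in MB, while on this scale the mitochondrial pair, both Hsp90 genes and HSPB1 stayed within 1.5-fold. Of the 9 genes, 4 were called lower in NM than in MB (HSPA8, HSPA1A, HSPH1 and DNAJB1) and 0 higher. Among the 19337 genes measured on both arrays, 18.6% were called lower and 24.5% higher. In NM against OM, 2 of 9 were called lower (HSPA8 and HSPA1A), against 12.7% of 19405 genes, and 0 higher, against 10.9%. In MB against OM, 0 of 9 were called in either direction, against 10.4% of 20701 genes called higher and 16.9% lower. Beside genes at least as bright over the 3 arrays as the dimmest chaperone, a comparison added with these results known, the lower calls were 8.84% in NM against MB and 5.61% in NM against OM. The 3 comparisons share their arrays and are not independent.

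**Figure D1:**
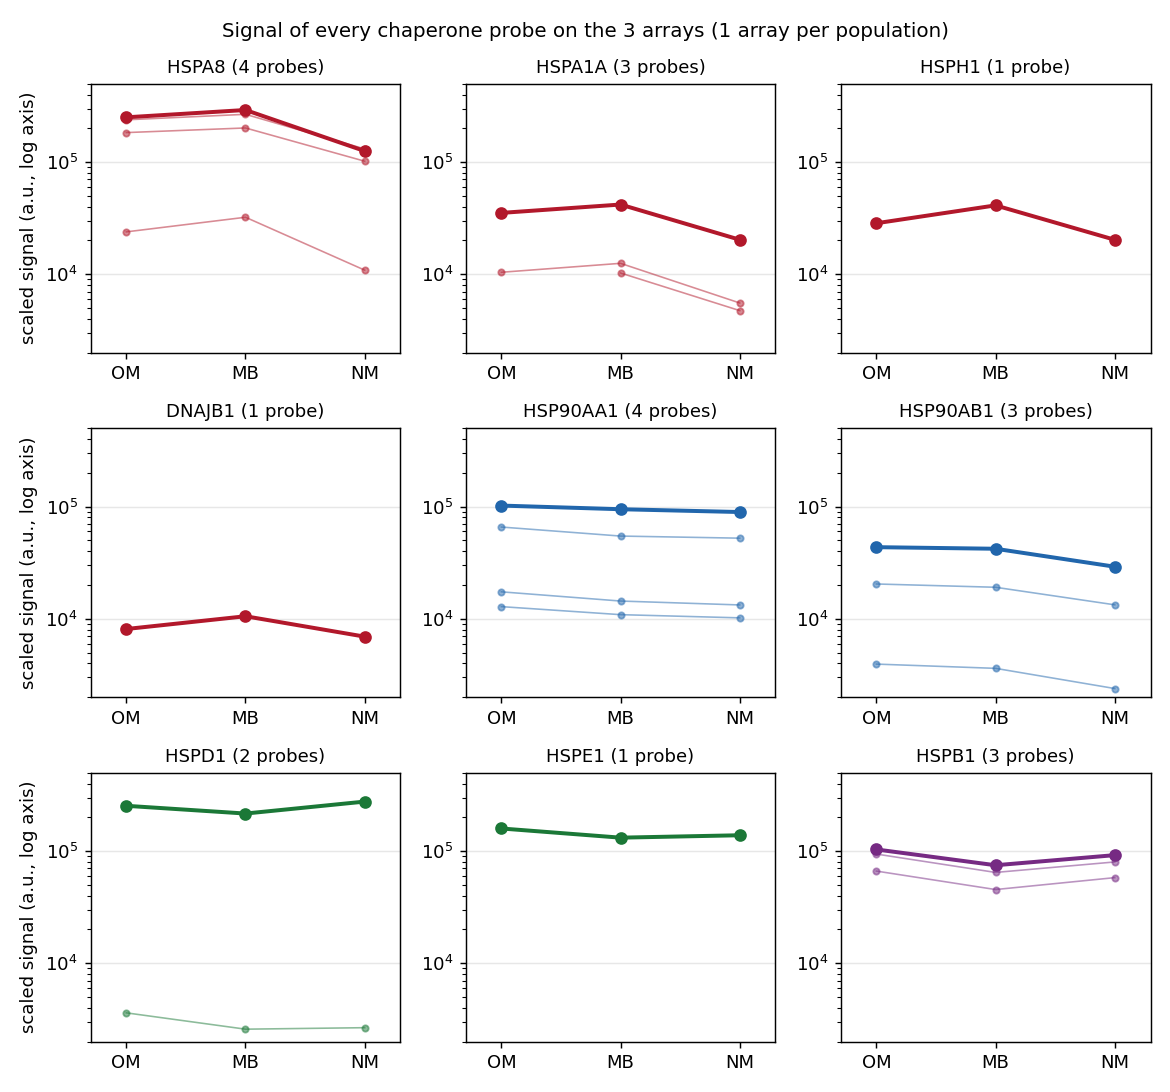
Scaled signal in a.u. (log axis) of each of the 22 chaperone probes on the OM, MB and NM arrays, with 1 array per population and no error bar. Thick lines mark the brightest probe of each gene, and all probes of HSPA8, HSPA1A, HSPH1 and DNAJB1 have their lowest point in NM.

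HSPA8, the constitutive Hsp70 of the cytosol, read 250478 a.u. in OM, 291082 in MB and 125317 in NM. NM thus stood below both other arrays, 2.32-fold below MB and 2.00-fold (unrounded, just under 2) below OM, while MB was 1.16 times OM. The same order, MB over OM over NM, was seen with all 4 HSPA8 probes, which spread from 1.98-fold to 2.96-fold lower in NM than in MB and from 1.80-fold to 2.19-fold lower than in OM. The probe with the largest difference lies in the coding sequence and read 23862 a.u. in OM, 32210 in MB and 10878 in NM. The other 3 lie closer to the 3′ end of the transcript, and 2 of these have identical sequences, whose log2 ratios differed by 0.19 for NM over MB and by 0.14 for NM over OM.

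HSPA1A encodes the stress-inducible Hsp70. Its brightest probe gave 35220 a.u. in OM, 41818 in MB and 20308 in NM, the same order as HSPA8. NM was 2.06-fold below MB and 1.73-fold below OM, and MB was 1.19 times OM. The second probe gave 10411, 12511 and 5545 a.u., with NM 2.26-fold below MB and 1.88-fold below OM. The other one gave 10259 a.u. in MB and 4742 in NM. HSPA1A and HSPA1B encode the same protein, so signal of HSPA1A probes within the coding sequence may include HSPA1B, and the share was not tested.

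The coding probes of HSPA8 and HSPA1A that carry these values read neighbouring stretches of related genes. They are printed in full, with the 22 bases in which they overlap in capitals, because they read related stretches. Whether either probe also binds the transcript of the other gene was not tested.
HSPA8: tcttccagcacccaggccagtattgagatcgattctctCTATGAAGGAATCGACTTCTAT
HSPA1A: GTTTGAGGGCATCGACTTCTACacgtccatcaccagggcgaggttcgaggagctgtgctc

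In the overlap 17 of 22 bases were identical and 5 differed. The HSPA8 probe lies on the minus strand of chr11:122435629-122435688 and the HSPA1A probe on the plus strand of chr6:31892373-31892432, both in hg17. Over stretches of 30 bases or more, the most alike pair of probes from different members was identical at 51.6% of bases, a comparison of probes with each other and not with the transcripts of the other genes. Processed pseudogenes of HSPA8, HSP90AA1, HSPD1 and HSPE1 are known to exist, and their part in the signal was not tested.

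HSPH1, the Hsp110 exchange factor for Hsp70, read 28485 a.u. in OM, 41100 in MB and 20289 in NM with its single probe. It had the largest ratio of the 9 genes in MB over OM, 1.44, which is under the call threshold, and was 2.03-fold lower in NM than in MB. NM was 1.40-fold below OM and not called. DNAJB1, the J protein that pairs with the inducible Hsp70, read 8100 a.u. in OM, 10525 in MB and 6926 in NM. NM was 1.52-fold below MB, just past the threshold, and 1.17-fold below OM, and MB was 1.30 times OM. With spike-in probes as the scale, its log2 ratio in NM over MB was -0.58 and no longer called, while under the 11 other alternatives it was. The calls of HSPA8, HSPA1A and HSPH1 in NM over MB, and those of HSPA8 and HSPA1A in NM over OM, held under all 12. HSPA8, HSPA1A, HSPH1 and DNAJB1 thus all had their highest signal in MB and their lowest in NM. Their log2 ratios in MB over OM were above 0 under all 12 alternatives, and HSPH1 passed 1.5-fold under 4 of them.

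HSP90AA1, the inducible Hsp90 alpha, was nearly level by its brightest probe. It read 102017 a.u. in OM, 94660 in MB and 89373 in NM, and NM was 1.06-fold below MB and 1.14-fold below OM. Its probe printed in 10 spots read 65677 ± 1210 a.u. in OM, 54570 ± 702 in MB and 52261 ± 1163 in NM (SD over 10 spots, technical only). By that probe MB was 0.83 times OM. The log2 ratio of HSP90AA1 in MB over OM, -0.11, was above 0 under 4 of 12 alternatives. All 4 probes gave values in the same order, OM over MB over NM, with NM over MB between 0.92 and 0.96. Those other than the brightest were 1.26-fold to 1.31-fold lower in NM than in OM, and MB was 0.83 to 0.85 times OM by them. HSP90AA1 passed 1.5-fold in NM over MB under 1 of 12 alternatives, quantile normalization, at -0.62 on the log2 scale.

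HSP90AB1, the constitutive Hsp90 beta, read 43446 a.u. in OM, 42056 in MB and 29100 in NM. OM and MB lay close together and NM was below both, by 1.45-fold against MB and 1.49-fold against OM, both just under the threshold. Its other 2 probes were 1.65-fold and 1.53-fold lower in NM than in OM, and 1.51-fold and 1.43-fold lower than in MB. A call for HSP90AB1 in NM against OM therefore depends on the probe and on the scale, and it was past 1.5-fold under 8 of 12 other ways of processing. In NM against MB it was past 1.5-fold under 5 of the 12. Within the arrays, where any scaling factor cancels, HSP90AB1 relative to HSP90AA1 was 1.36-fold lower in NM than in MB, against 1.04-fold higher in MB than in OM.

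HSP90AA1 matters in a second way, since the study divided its arrays by the mean of GAPDH, ACTB and HSP90. Its text does not say which HSP90 gene this was, and HSP90AA1 was used here for having a 10-spot probe. In their 10-spot probes HSP90AA1 made up 16.6% of the sum of these 3 genes in OM, 15.8% in MB and 14.0% in NM. GAPDH made up 61.0%, 58.2% and 64.0%, and ACTB 22.3%, 26.1% and 22.0%. On the scale of the 75th percentile, the 10-spot probe of HSP90AA1 had a log2 ratio of -0.27 in MB over OM and -0.33 in NM over OM. That of GAPDH had -0.26 and -0.01, and that of ACTB 0.03 and -0.09. Scaling to these 3 genes put the log2 ratio of HSP90AA1 in MB over OM at 0.08 instead of -0.11. This scale holds HSP90AA1 itself, and scaling to GAPDH and ACTB alone put the ratio at 0.07. Both scalings left HSPA8, HSPA1A, HSPH1 and DNAJB1 called lower in NM than in MB and put HSP90AB1 beyond the threshold as well.

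The mitochondrial chaperonin was not called in any comparison. HSPD1 read 253109 a.u. in OM, 215910 in MB and 275951 in NM, so that MB was lowest and NM highest. NM over MB was 1.28 and MB over OM 0.85, neither called. Its second probe, in the coding sequence, read 3613 a.u. in OM, 2584 in MB and 2664 in NM, and gave 1.03 for NM over MB and 0.74 for NM over OM, so the 2 probes differ on whether NM lies above or below OM. HSPE1, the co-chaperonin, read 158931 a.u. in OM, 131635 in MB and 138298 in NM, with MB over OM at 0.83 and NM over MB at 1.05. Neither gene passed 1.5-fold in any comparison under any of the 12 alternatives. The sign of NM over MB turned under quantile normalization for HSPD1 and under 4 alternatives for HSPE1.

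HSPB1 (Hsp27) is a small heat shock protein that holds unfolded proteins without using ATP and binds the actin cytoskeleton. It read 103328 a.u. in OM, 74732 in MB and 91953 in NM. MB was lowest, at 0.72 times OM, and NM over MB was 1.23. The 3 probes, which overlap in sequence or lie next to each other, ran from 0.68 to 0.72 for MB over OM and from 1.23 to 1.28 for NM over MB. None of these passed 1.5-fold, and quantile normalization put NM over MB at -0.24 on the log2 scale.

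**Figure D2:**
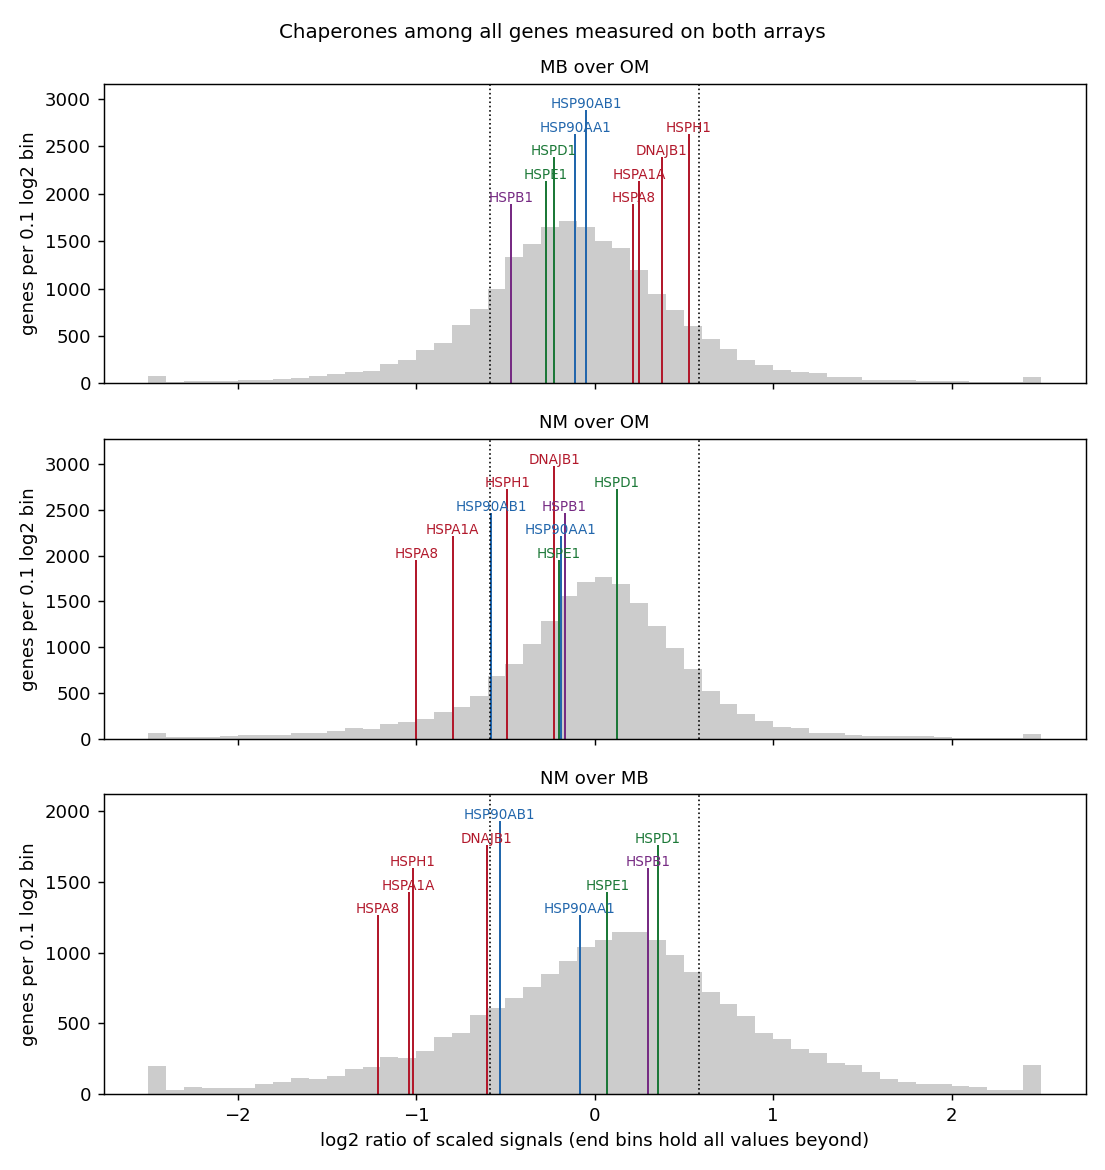
Histograms of the log2 ratio for all genes measured on both arrays of a comparison, with 9 chaperones as lines (red HSPA8, HSPA1A, HSPH1 and DNAJB1, blue Hsp90, green mitochondrial chaperonin, purple HSPB1) and dotted lines at 1.5-fold. The red genes lie right of the others in MB over OM, from 0.22 to 0.53, and at the left in NM over MB, from -1.22 to -0.60.

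Read as a list, the 9 genes had a median log2 ratio of -0.53 in NM over MB, where all genes had 0.12 and the bright genes 0.31. In NM over OM the median was -0.23, against 0.01 for all genes, and in MB over OM it was -0.05, against -0.11. In NM over MB the members ran from -1.22 (HSPA8) to 0.35 (HSPD1), a 2.97-fold difference within the same arrays. HSPA8 had a lower ratio than 93.5% of genes in that comparison and HSPA1A, HSPH1 and DNAJB1 lower ones than 91.3%, 90.9% and 81.9% of them. HSPD1 had a higher ratio than 63.9% of genes. Ratios between members need no scale, and by these HSPA8 relative to HSPE1 was 2.44-fold lower in NM than in MB, relative to HSP90AA1 2.19-fold lower and relative to GAPDH 2.77-fold lower. HSPA1A relative to HSPB1 was 2.53-fold lower in NM than in MB and 1.64-fold higher in MB than in OM.

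**Figure D3:**
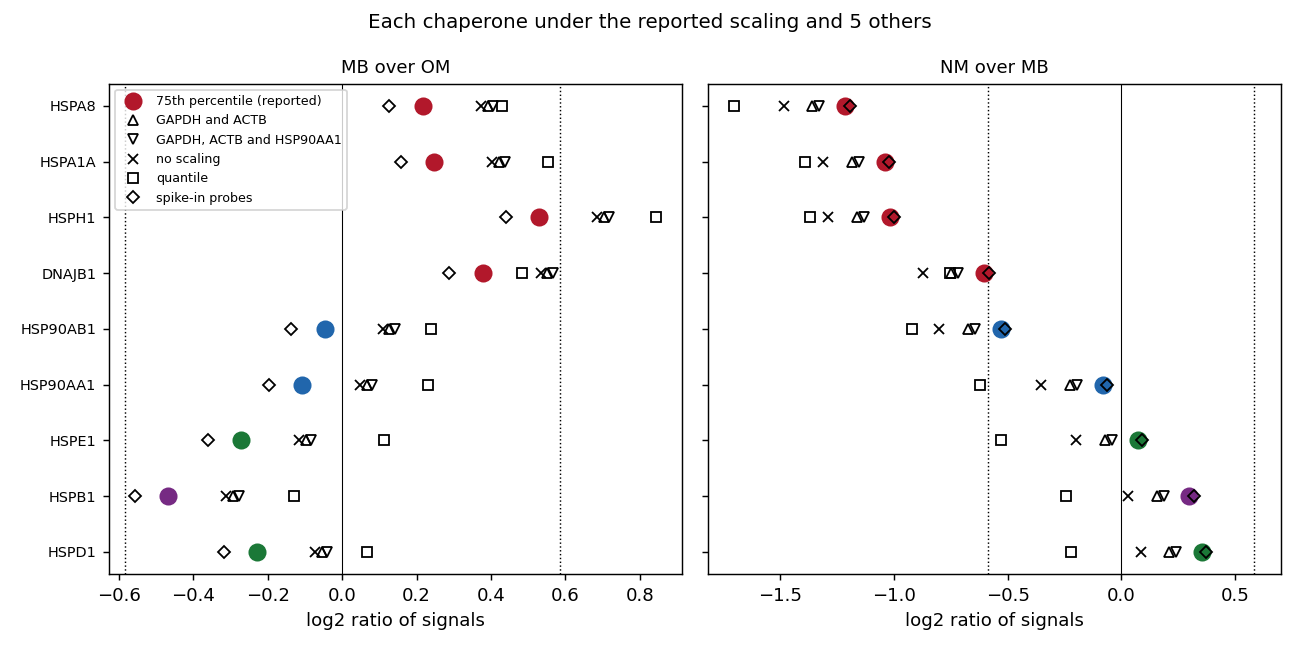
Log2 ratios of the 9 chaperones under the reported scaling (filled circles) and 5 others, with dotted lines at 1.5-fold. In NM over MB, HSPA8, HSPA1A and HSPH1 stay left of the threshold under all 6, and quantile normalization moves HSPD1, HSPE1 and HSPB1 to the other side of 0. HSPE1 also crosses 0 with both housekeeping scalings and with no scaling.

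Partners of the chaperones were read as lists by function. Of 12 Hsp90 co-chaperones, all measured, 11 of 12 had log2 ratios below 0 in NM over OM, also under all 12 alternatives, and 2 were called lower there, CHORDC1 and STIP1. Over all genes 48.8% lay below 0 in NM over OM, 38.8% of those at least as bright as the dimmest chaperone, and 12.7% were called lower. In MB over OM 11 of 12 lay below 0 as well, and 7 to 11 did under the alternatives. The list's median was -0.31 there and -0.25 in NM over OM. Of all genes 58.9% lay below 0 in MB over OM, and of the bright genes 72.7%. CHORDC1, an Hsp90 co-chaperone with zinc-binding CHORD domains, read 1233 a.u. in OM, 1916 in MB and 744 in NM. It was called in all 3 comparisons, 1.55 times OM in MB and 2.58-fold lower in NM than in MB, the same order as HSPA8. STIP1 (Hop), which links Hsp70 to Hsp90, read 10066 a.u. in OM, 9547 in MB and 6385 in NM, 1.58-fold lower in NM than in OM. CHORDC1 was the only 1 of the 12 called in NM over MB, where 18.6% of all genes were called lower. There 5 of 12 lay below 0, against 43.4% of all genes. The median of the list in NM over MB was 0.06, ranging from -0.21 to 0.10 over the alternatives.

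Of 16 Hsp70 co-chaperones and J proteins, 15 were measured, and 4 were called lower in NM than in MB and 0 higher, with 3 to 6 lower and 0 higher under the alternatives, against 18.6% and 24.5% of all genes. These were DNAJA2 (1.78-fold), a J protein, and 3 members of the BAG family of Hsp70 exchange factors, BAG3 (1.71-fold), BAG1 (1.55-fold) and BAG5 (1.51-fold). BAG3, which steers clients to autophagy, read 5977 a.u. in OM, 5824 in MB and 3397 in NM, with NM below both others. DNAJA2 and BAG3 were also the 2 called lower in NM than in OM, against 12.7% of all genes, with 1 to 5 under the alternatives. BAG1 and DNAJB2 were the 2 called higher in MB than in OM, at 1.68 and 1.53 times. There 10.4% of all genes were called higher, and 1 to 3 of the list were under the alternatives. The list's median was -0.09 in NM over MB.

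Other Hsp70 and Hsp110 proteins gave 2 lower calls in NM over OM among 7 measured, here and under each alternative, against 12.7% of all genes. HSPA2 read 4255 a.u. in OM, 3420 in MB and 1863 in NM, 2.28-fold lower in NM than in OM, and the stress-inducible HSPA6 read 1141, 712 and 502 a.u., 2.27-fold lower. Unlike HSPA8, both had their highest signal in OM. HSPA12A was the other gene called lower in NM than in MB beside HSPA2, at 1.53-fold, and HSPA4, the Hsp110 relative of HSPH1, read 64157, 53966 and 50238 a.u. and was not called.

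Of 8 other small heat shock proteins only 5 were measured, and 3 of these were called higher in NM than in MB, against 24.5% of all genes, HSPB3 (2.87 times), HSPB9 (1.89 times) and HSPB6 (1.52 times). HSPB9 and HSPB6 were dim, at 127 a.u. or less. CRYAB (alpha B-crystallin) read 2900 a.u. in OM, 5905 in MB and 4912 in NM, called higher than OM in both.

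Among the mitochondrial partners, calls higher in NM outnumbered lower ones. Of 13 other mitochondrial chaperones and proteases, 6 were called higher in NM than in MB and 1 lower, against 24.5% and 18.6% of all genes, and the list's median was 0.47. Under the alternatives 3 to 6 were called higher and 1 lower, and the median lay between 0.20 and 0.49. LONP1, the matrix protease, read 35712 a.u. in OM, 22696 in MB and 55853 in NM, 2.46 times MB and 1.56 times OM. HSPA9 (mortalin), the Hsp70 of mitochondria, read 6794 a.u. in OM, 5559 in MB and 11194 in NM, 2.01 times MB and 1.65 times OM. Relative to HSPA9, HSPA8 was 4.68-fold lower in NM than in MB. GRPEL2, the exchange factor for HSPA9, was 1.84 times and TRAP1, the Hsp90 of mitochondria, 1.59 times MB, whereas the protease subunit SPG7 was 1.65-fold lower. In MB over OM only LONP1 was called, 1.57-fold lower, and under 4 of the 12 alternatives (both housekeeping scalings, quantile normalization and no scaling) no gene of the list was called lower there.

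Of 14 subunits of TRiC, the cytosolic chaperonin, and of prefoldin, which hands it actin and tubulin, 14 had log2 ratios below 0 in MB over OM, with a median of -0.31, but only 9 to 14 did under the alternatives. In the same comparison 58.9% of all genes and 72.7% of the bright genes lay below 0, with medians of -0.11 and -0.23. By their brightest probes, all 5 reference genes named below lay below 0 there as well, with a median of -0.23. Called were PFDN6 (2.38-fold lower) and PFDN4 (1.97-fold lower). In NM over MB 4 of 14 were called higher and 0 lower, against 24.5% and 18.6% of all genes, with 2 to 4 higher and 0 to 3 lower under the alternatives. The median there was 0.36, ranging from -0.11 with quantile normalization to 0.38. Called higher were PFDN4 (2.49 times), PFDN6 (2.21 times), PFDN2 (1.78 times) and CCT4 (1.53 times). In NM over OM 0 of 14 were called, and the median was -0.07.

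**Figure D4:**
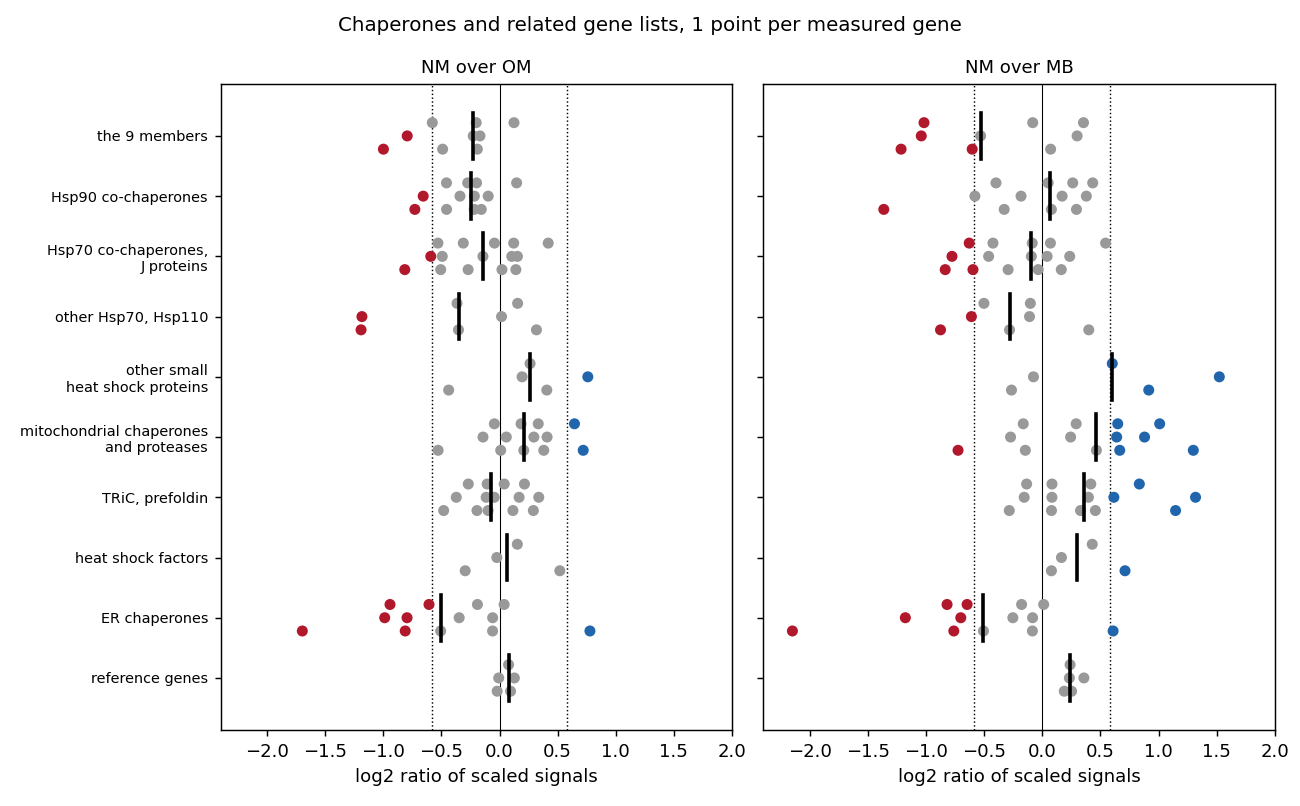
Log2 ratios of the 9 members and of 9 gene lists, 1 point per gene measured on both arrays, for NM over OM and NM over MB. Red and blue points were called lower and higher at 1.5-fold, black bars are medians and dotted lines mark 1.5-fold. In NM over MB the members' median lies at -0.53 and that of mitochondrial chaperones and proteases at 0.47.

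HSF1 itself read 68356 a.u. in OM, 67836 in MB and 76027 in NM and was not called, with log2 ratios of -0.01, 0.15 and 0.16 in MB over OM, NM over OM and NM over MB. HSF2, a second heat shock factor, was 1.64 times MB in NM. It was the only call in a list of 4 with HSF1, HSF4 and the HSF1-binding HSBP1, where 24.5% of all genes were called higher. No gene of this list was called higher in NM over MB under 2 of 12 alternatives, GAPDH and ACTB alone and no scaling. Of the 4 chaperone genes called lower in NM than in MB, HSPA8 had 3-unit matches, HSPA1A and DNAJB1 only 2-unit matches and HSPH1 neither. HSP90AA1, HSP90AB1 and HSPD1, which have 3-unit matches too, were not called. HSP90AB1 was 1.45-fold lower in NM than in MB, and passed 1.5-fold under 5 of 12 alternatives. HSPB1, with only a 2-unit match, and HSPE1, with neither, were not called. What the matches share with these values was not tested.

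Chaperones of the endoplasmic reticulum (ER), which fold secreted proteins, held lower calls in NM as well. Of 13, 6 were called lower and 1 higher in NM over OM, and likewise 6 and 1 in NM over MB, with a median of -0.51 in both and 5 to 7 lower calls under the alternatives. Of all genes, 12.7% were called lower and 10.9% higher in NM over OM, and 18.6% and 24.5% in NM over MB. SDF2L1, a partner of ER J proteins, read 57005 a.u. in OM, 39810 in MB and 17581 in NM, 3.24-fold lower in NM than in OM and 2.26-fold lower than in MB. DNAJC3, a J protein of the ER, read 2055, 4601 and 1036 a.u., 4.44-fold lower in NM than in MB and 1.98-fold lower than in OM. HSPA5 (BiP), the Hsp70 of the ER, read 41610, 25819 and 21653 a.u., and was lower than OM in both MB (1.61-fold) and NM (1.92-fold). No gene of the list was called lower in MB over OM under 4 of the 12 alternatives, both housekeeping scalings, quantile normalization and no scaling. DNAJB11 was 1.77-fold lower and the lectin chaperone CANX 1.70-fold lower in NM than in MB. DNAJB9, another J protein, was the gene called higher, at 1.72 times OM in NM. HSP90B1, the ER form of Hsp90, was level at 287924, 274049 and 276251 a.u.

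The reference genes GAPDH, ACTB, ACTG1, LDHA and VIM had 0 calls of 5 in each comparison, here and under the alternatives. By their brightest probes, their log2 ratios ran from 0.19 to 0.36 in NM over MB. The median of the 5 there ran from -0.29 to 0.26 over the alternatives. For ACTB the sign depended on the probe. Its brightest probe gave 0.19 in NM over MB and -0.11 in MB over OM. The ACTB probe used for the housekeeping scalings gave -0.13 and 0.03. The melanocyte markers went with the line's label in part. SOX10, S100B, MITF, PMEL and DCT were well above background on all arrays, though MITF, PMEL and DCT were dim. MLANA was dim and not well above background in NM, and TYR and TYRP1 stayed at background. S100B read 25155 a.u. in OM, 39263 in MB and 14398 in NM, the order of HSPA8. PMEL ran the other way, at 286, 188 and 293 a.u., called lower in MB than in OM and higher in NM than in MB. No melanocyte marker was called lower in MB over OM under 7 of 12 alternatives, and none higher in NM over MB under 6 of 12. MITF read 423, 644 and 596 a.u. and was called higher in MB than in OM. The summed signal of the 8 markers, nearly all S100B and SOX10, was 32230, 48620 and 20689 a.u. Of 5 fibroblast markers, LUM, COL1A2 and COL3A1 stayed at background throughout, and the summed signal of 5548, 8903 and 3481 a.u. was nearly all PDGFRA. Summed signals were 39424, 35681 and 35472 a.u. for 5 keratinocyte markers, mostly KRT10, with KRT5 at background. For 5 leukocyte markers they were 214, 199 and 216 a.u., with PTPRC and LYZ at background. For 4 endothelial markers they were 229, 449 and 148 a.u., mostly VWF (185, 350 and 103 a.u.), with CDH5 at background. KDR was lowest in MB, at 27, 13 and 23 a.u., and well above background in OM only. What the melanocyte, fibroblast and endothelial sums, which were highest in MB and lowest in NM, share with the values of HSPA8, HSPA1A, HSPH1 and DNAJB1 was not tested.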

How the data were processed

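Total RNA of OM, MB and NM cells was measured on 3 Agilent 1-colour arrays, 1 each, on 1 slide with 1 scan time. The authors deposited spot intensities from Feature Extraction 9.5.3.1, with the background subtracted and the signal detrended and with no scaling between arrays. Their value table holds the same intensities (130128 of 130128 within 0.1%). Each array has 43376 spots for 41000 probes of 60 bases placed on hg17.

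Here control and outlier spots (77, 79 and 81) were dropped, spots of a probe averaged, and each array scaled to its 75th percentile (1758, 1960 and 1625 a.u. in OM, MB and NM). A gene was its probe with the highest mean. Calls needed 1.5-fold and both arrays well above background. Current gene names (GRCh38.p14) were found through the accession for 23434 probes, through the symbol for 2317 and through a synonym for 1043, and 14206 kept the array's name. The scripts were tested on simulated data. Python 3.11.15, numpy 2.4.6, pandas 2.3.3, matplotlib 3.10.9 and, for normexp with an offset of 50, limma 3.58.1 in R 4.3.3 were used.

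The members and lists were chosen with earlier results of these data known. Named are all members and, of each other list, at most 4 genes with the largest change among those called in a comparison, plus HSF1 and a few further genes (HSPA4, TRAP1, DNAJB9, HSP90B1, reference genes and cell type markers) added after their values were seen. The 9 gene lists by function and 5 lists of cell type markers hold 120 entries, and 1 further gene is not reported here.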

Additional observations from a re-analysis of the deposited data

How the results depend on the processing

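With 1 array per population no ratio has an error from cultures, and the slide could not serve as a block because it is the same for all arrays. No paired analysis was possible because each population has 1 array. The 14 other ways of processing and 2 added after seeing the data (a background of bright genes and a percentile over single spots) changed the direction of no call.

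In MB over OM, 1 chaperone (HSPH1, higher) passed 1.5-fold with GAPDH and ACTB, with these 2 and HSP90AA1, with no scaling and with quantile normalization, against 0 otherwise. In NM over OM, 0 passed at 2-fold and at 5-fold, 4 with no scaling and 3 under 7 settings, against 2. In NM over MB, 0 passed at 5-fold, 3 at 2-fold and with spike-in probes, 5 with GAPDH and ACTB, with HSP90AA1 added, with no scaling and with the percentile over probes well above background, and 6 with quantile normalization, against 4. The median log2 ratio in MB over OM, -0.05, became 0.13 with GAPDH and ACTB, 0.14 with HSP90AA1 added, 0.11 with no scaling, 0.24 with quantile normalization and -0.14 with spike-in probes. In NM over MB, -0.53 became -0.68, -0.65, -0.80 and -0.76 under the first 4 of these. In NM over OM, -0.23 became -0.15 with the 3 housekeeping genes, -0.31 with the mean of a gene's probes, -0.34 with no scaling and -0.42 with quantile normalization. The other 60 of 81 counts and medians, those counts of 3, 5 and 6 among them, stayed within 1.5 times the reported count or within the technical SD of the reported median. Over all genes, scaling to the 3 housekeeping genes shifted the median in MB over OM from -0.11 to 0.08 (log2) and turned the calls from 2156 higher and 3496 lower to 3496 and 2129. In NM over MB no scaling moved that median from 0.12 to -0.15 and the calls from 4747 higher and 3593 lower to 2958 and 5461.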
